A study of Homo sapiens with 6 samples.

Results

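Exons whose length is a multiple of 3 bases can be left out of an mRNA without shifting the reading frame of the exons that follow. In SW480 cells, a line from a human colorectal adenocarcinoma, the deposited comparison of splicing between shCtrl and shMORC2 cells listed 1449 events, of which 853 were skipped exons. The exon was divisible by 3 in 414 of these 853 events, which held 400 distinct exons in 374 genes. Members were chosen by exon length alone, as the end minus the start of the exon in the event record.

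MORC2 is a nuclear ATPase of the microrchidia family with roles in chromatin compaction and gene silencing. The study depleted it with a short hairpin RNA (shMORC2) and used a control hairpin (shCtrl), with 3 libraries of each, all from this one line and with no further treatment in the labels. The labels give the genotype of the shCtrl cells as WT and number the libraries without saying what a number stands for, while the study's methods speak of 3 replicate experiments a group. The p-values measure the spread between these libraries. The splicing table calls its 2 sets of 3 libraries group 1 and group 2 and does not name them, so each inclusion difference below subtracts group 2 from group 1, with neither taken as the knockdown. The gene counts do carry the labels. MORC2 stood at 46.1, 46.4 and 48.8 CPM (counts scaled to a common library size) in shCtrl and at 35.0, 29.3 and 27.2 CPM in shMORC2 (edgeR log2 fold change -0.63, SE 0.10, adjusted p 2.16e-04). RBM39, a splicing factor that the study also depleted in other samples, stood at 373, 380 and 376 CPM in shCtrl and 340, 308 and 291 CPM in shMORC2 (log2 fold change -0.27, SE 0.08, edgeR adjusted p 0.0143).

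A skipped exon, or cassette exon, is bounded by introns whose splice sites are recognised by the spliceosome, and RNA-binding proteins that bind in or near the exon set how often it is used. When the length of a coding exon is divisible by 3, both forms of the mRNA can be read to the usual stop codon, and the proteins differ by a run of residues. When it is not, the shorter form is read in another frame and often meets an early stop codon, which exposes the mRNA to nonsense-mediated decay. Very short cassette exons, or microexons, often lie in genes of the cytoskeleton and of vesicle traffic. The inclusion level used here runs from 0, when all reads come from the form without the exon, to 1, when all come from the form with it, after correction for the lengths of both forms.

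The exon followed most closely in the study was that of CDK5RAP2, a centrosomal protein that anchors the gamma-tubulin ring complex. It is exon 32 of the 38 exons of the canonical transcript, has 237 bases and encodes 79 codons (GRCh38, chr9:120407012-120407248, minus strand). MARK2, a polarity kinase that phosphorylates microtubule-associated proteins, held a member of 162 bases (chr11:63903986-63904147, plus strand, exon 15 of 19). These 2 sequences are shown because the study carried both genes into PCR. The exon is in capitals, with 20 intron bases before it and 10 after it in lower case.

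CDK5RAP2 exon: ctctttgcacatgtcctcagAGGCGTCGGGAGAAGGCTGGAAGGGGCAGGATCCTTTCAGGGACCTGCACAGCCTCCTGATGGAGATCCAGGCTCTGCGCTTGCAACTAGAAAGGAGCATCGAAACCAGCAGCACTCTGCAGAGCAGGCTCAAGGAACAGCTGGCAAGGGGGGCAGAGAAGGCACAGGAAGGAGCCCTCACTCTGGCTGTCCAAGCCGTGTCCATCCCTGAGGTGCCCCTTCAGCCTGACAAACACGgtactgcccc
MARK2 exon: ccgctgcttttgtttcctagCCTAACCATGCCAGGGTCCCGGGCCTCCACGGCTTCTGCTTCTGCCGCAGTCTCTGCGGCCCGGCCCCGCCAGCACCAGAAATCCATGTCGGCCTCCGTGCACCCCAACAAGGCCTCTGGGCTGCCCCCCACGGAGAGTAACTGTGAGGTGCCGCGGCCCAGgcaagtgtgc

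The MARK2 exon ends in a gc dinucleotide at the start of the following intron, as did 4 of the 414 members, while the other 410 had gt. All 414 had ag at the end of the preceding intron.

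The next set shows 4 coding exons with large differences between the groups: GOLIM4 (84 bases, chr3:168040786-168040869, minus strand), SBF1 (78 bases, chr22:50457034-50457111, minus strand), TM2D3 (78 bases, chr15:101651696-101651773, minus strand) and HMMR (48 bases, chr5:163467701-163467748, plus strand). Capitals mark the exon, as above.

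GOLIM4 exon: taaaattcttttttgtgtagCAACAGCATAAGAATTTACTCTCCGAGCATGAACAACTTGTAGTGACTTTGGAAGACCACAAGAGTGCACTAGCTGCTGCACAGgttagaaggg
SBF1 exon: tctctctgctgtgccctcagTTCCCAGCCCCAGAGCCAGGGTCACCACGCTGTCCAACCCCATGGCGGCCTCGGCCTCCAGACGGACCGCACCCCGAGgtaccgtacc
TM2D3 exon: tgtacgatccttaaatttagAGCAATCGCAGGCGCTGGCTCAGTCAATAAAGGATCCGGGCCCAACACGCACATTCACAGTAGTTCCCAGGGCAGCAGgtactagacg
HMMR exon: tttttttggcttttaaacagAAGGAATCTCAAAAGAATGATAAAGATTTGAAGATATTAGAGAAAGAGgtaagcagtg

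Microexons are shown next because their whole coding content fits in a few codons: MTSS1L (9 bases, chr16:70679315-70679323, minus strand), STX16 (12 bases, chr20:58659623-58659634, plus strand), DNM1 (12 bases, chr9:128239985-128239996, plus strand), ARHGAP12 (15 bases, chr10:31839305-31839319, minus strand), FNBP1 (15 bases, chr9:129915966-129915980, minus strand) and PICALM (24 bases, chr11:85978070-85978093, minus strand).

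MTSS1L microexon: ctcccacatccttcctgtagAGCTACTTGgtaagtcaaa
STX16 microexon: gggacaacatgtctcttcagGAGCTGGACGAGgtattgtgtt
DNM1 microexon: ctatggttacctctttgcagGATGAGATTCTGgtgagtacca
ARHGAP12 microexon: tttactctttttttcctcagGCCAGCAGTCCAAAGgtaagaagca
FNBP1 microexon: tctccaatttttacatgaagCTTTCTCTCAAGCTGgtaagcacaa
PICALM microexon: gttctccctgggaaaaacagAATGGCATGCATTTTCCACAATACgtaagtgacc

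Divisibility by 3 was more frequent among listed exons that code for protein. It held for 54.2% of the 587 listed events with a wholly coding exon and for 36.1% of the 266 events with an exon of another class. In the GENCODE annotation (release 44), 41.1% of 164726 internal coding exons were divisible by 3. Among the 18761 of these that an annotated transcript also skips the share was 51.9%, and among the 145965 that no annotated transcript skips it was 39.7%. The listed coding exons therefore lay near the annotated cassette exons rather than near exons with no annotated skipping.

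Of the 414 members, 318 (76.8%) were wholly coding in an annotated protein-coding transcript, against 61.3% of the 439 other skipped exons. A further 25 were partly coding and 24 lay in the 5′ untranslated region. The remaining 47 were in transcripts without a coding sequence (43) or annotated only in transcripts subject to decay (4). The canonical transcript of the gene held the exon for 341 members. The junction that joins both neighbours and skips the exon was annotated for 305 members (73.7%), against 67.2% of the other skipped exons.

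The members were shorter than the other skipped exons, with a median of 111 bases (quartiles 63.0 and 162) against 128 bases (quartiles 85.0 and 178). The shortest had 9 bases and the longest 3381, and 390 of 414 had at most 300. Base composition was similar, with a median GC content of 50.8% in members and 51.2% in the others. The flanking introns had medians of 2714 bases before and 2693 bases after the members.

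**Figure D1:**
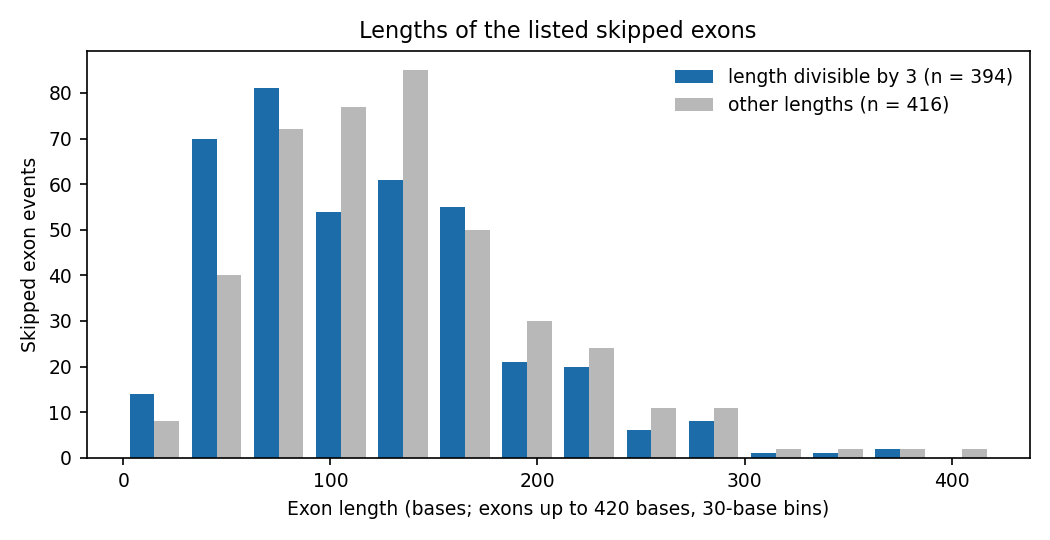
Number of listed skipped exon events (y axis) by exon length in bases (x axis, bins of 30 bases, exons up to 420 bases) for exons whose length is divisible by 3 and for the others. Members outnumber the other exons in the 3 shortest bins.

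The reading frame could be followed from the 5′ neighbour of the event into the exon for 321 members. No stop codon was met in the exon in 293 of them. It began at a codon boundary in 172, after 1 carried base in 103 and after 2 carried bases in 46. In the other 28 events (8.72% of those with a frame) the exon held an in-frame stop codon through this neighbour, against 18.1% of the other skipped exons with a frame. Of these 28 exons, 16 are coding in another annotated transcript, so the stop codon depends on which exon comes before. The other 12 are not wholly coding in the annotation.

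A length divisible by 3 thus does not by itself give a protein of the same frame. LSM14A, a component of processing bodies, held such an exon of 57 bases (chr19:34226408-34226464, plus strand). It is shown from the first base of the exon to the in-frame stop codon, which is in capitals.

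LSM14A exon to its stop: aaaaccacagcttttggacccTAA

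The LSM14A exon was included at 0.455, 0.451 and 0.455 in group 1 and 0.287, 0.343 and 0.267 in group 2, without overlap (edgeR adjusted p 0.0786). An exon of 204 bases in MTX2, a mitochondrial import protein, is annotated only in transcripts subject to decay and holds its stop codon from base 72. Its level was 0.234, 0.163 and 0.081 in group 1 and 0.273, 0.331 and 0.280 in group 2 (edgeR adjusted p 0.0297). In both genes the form with the exon carries the early stop, and both forms were present in all 6 libraries. Skipping can create a stop as well, since the codon at the new junction was a stop in 2 of the 149 events in which the frame crosses the exon boundary. PDCD6, a calcium-binding adaptor, was one of the 2 genes, and its exon of 159 bases stood at 0.601, 0.510 and 0.524 in group 1 and 0.703, 0.620 and 0.672 in group 2 (edgeR adjusted p 0.0328). The other was ABHD12, a lipid hydrolase, whose exon of 120 bases did not pass the test in either of its events (edgeR adjusted p 0.20 and 0.204).

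The reads behind each event were few. Summed over the 414 members, a library held 20913 to 22256 inclusion and skipping reads. The median event had 9 reads in its least covered library, 221 members had fewer than 10 there, and 124 had at least 20 in every library. Skipping reads numbered 7246, 7216 and 7489 in group 1 and 5730, 5745 and 5802 in group 2, while inclusion reads numbered 14408 to 14767 in group 1 and 15183 to 15573 in group 2.

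Every listed event had been selected by the authors for a p-value under 0.05 and a difference of at least 0.1 between the same 2 groups, out of 28265 skipped exon events examined. The differences below are therefore a description, and the tests of the same reads are not independent evidence that the exons differ. Inclusion was higher in group 1 for 202 members and lower for 212. Among the other skipped exons it was higher for 242 and lower for 197. Over those 124 well-covered members it was higher in 52 and lower in 72.

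The median size of the difference was 0.205 over all members and 0.141 over the 124 well-covered ones. A size of at least 0.2 was found in 210 members, of which 22 had at least 20 reads in every library. Most of the large differences thus came from thinly covered events. Intermediate mean levels, from 0.2 up to 0.8, were found for 254 members, while 134 stood above that range and 26 below it.

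**Figure D2:**
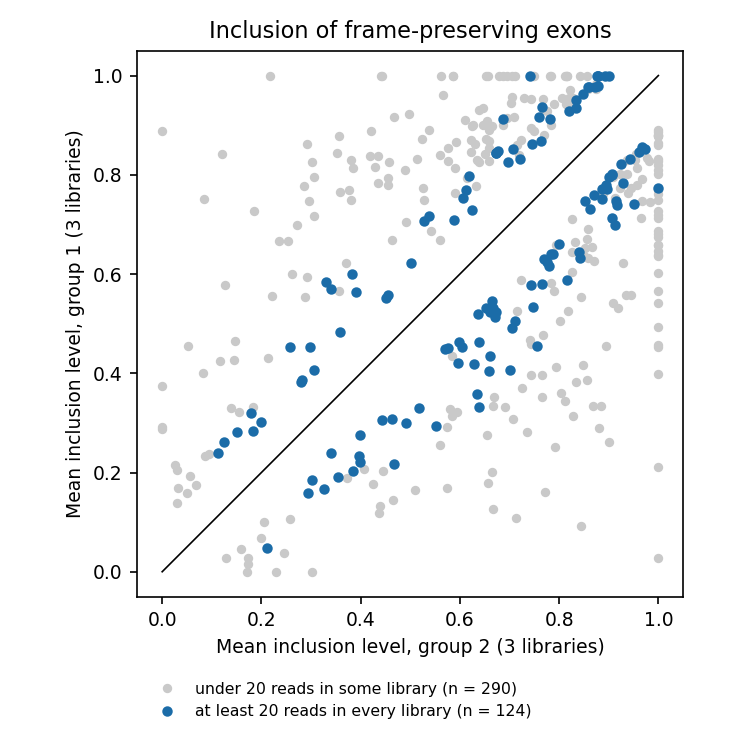
Mean inclusion level of the 414 members in group 1 (y axis) against group 2 (x axis), each over 3 libraries, with the diagonal of equal levels. The 124 members with at least 20 reads in every library are in blue, and the empty band along the diagonal comes from the selection of events with a difference of at least 0.1.

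In edgeR's quasi-likelihood test of the inclusion and skipping reads, 154 of 414 members (37.2%) had an adjusted p under 0.05, and 211 had an unadjusted p under 0.05. The background was 46.2% of all 1449 listed events and 33.3% of the 853 skipped exon events. The called members comprised 62 with higher inclusion in group 1 and 92 with lower. Over all listed events, 19.9% were called higher in group 1 and 26.3% lower. The 3 values of one group lay wholly above those of the other in 222 members (53.6%), where 59.8% of all listed events did so. The share of called members was thus below that of all events and above that of skipped exons as a whole. With 3 libraries against 3, an exact two-sided permutation test of 1 event cannot give a p below 0.1.

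Calls depended strongly on the model. DESeq2 called 35 members and limma on the logit of the level 54. Leaving out 1 library left 58 to 110 calls, and 37 of the reported called members stayed called without any one library. The reported members called in all 9 fits, chosen after their values were seen, were 12 events in LRRC75A-AS1, GOLIM4, APP, FAM204A, DMKN, AKAP9, SCRIB, SBF1, PLD3, FOXM1, ASL and NME7. Inclusion was lower in group 1 in 10 of them and higher in 2, SCRIB and SBF1. All 12 had a limma adjusted p from 0.0432 to 0.0486, just under the threshold. An exon of 30 bases in LMO7 (edgeR adjusted p 1.69e-16) missed it narrowly, with a limma adjusted p of 0.0501. Every other event named in the text with an adjusted p under 0.05 lost that call in at least 1 fit.

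The CDK5RAP2 exon was included at 0.861, 0.820 and 0.925 in group 1 and at 0.784, 0.772 and 0.736 in group 2. All 3 values of group 1 were above those of group 2, although most transcripts held the exon in both groups. These levels rested on 135 to 204 reads a library, of which 11, 13 and 5 were skipping reads in group 1 and 12, 14 and 16 in group 2. The difference was 0.105, and the log2 odds ratio of inclusion was 1.01 (SE 0.38, edgeR adjusted p 0.0243). Without the correction for length the difference was 0.0474. The call held in 3 of the 6 fits without 1 library, and DESeq2 gave an adjusted p of 0.132.

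The MARK2 exon was included at 0.420, 0.631 and 0.522 in group 1 and at 0.643, 0.717 and 0.623 in group 2. The highest library of group 1 lay above the lowest of group 2, so the groups overlapped. The difference was -0.137, with a log2 odds ratio of -0.87 (SE 0.27, edgeR adjusted p 0.00702, DESeq2 adjusted p 0.142). Without group 1 replicate 1 the difference was -0.0845, and the call held in 3 of the 6 fits without 1 library. OBSL1, a cytoskeletal adaptor, held a member of 276 bases at 0.339, 0.272 and 0.262 in group 1 and 0.490, 0.742 and 0.490 in group 2. The groups were apart, but 1 library held only 4 reads and the test was not passed (edgeR adjusted p 0.0959). FRMD8, a FERM-domain protein that stabilises iRhom at the cell surface, held a member of 102 bases at 0.662, 1 and 0.931 in group 1 and at 1 in all 3 libraries of group 2 (edgeR adjusted p 0.0538). One library of group 1 had 4 of the 5 skipping reads of this event, and the difference was -0.136 with it and -0.0345 without it. CDK5RAP2 and MARK2 thus passed the test in opposite directions, and OBSL1 and FRMD8 did not pass it. ZNF35, which the study also followed by PCR, held no member.

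CDK5RAP2, MARK2, OBSL1 and FRMD8 belong to a list of skipped exon events that the study drew partly from these libraries. The list holds events altered here and after RBM39 depletion, in genes whose RNA was also pulled down with RBM39. It is therefore not independent evidence of any direction. Matched by exon, 13 of its exons were members, in 15 events. Inclusion was higher in group 1 in 8 events and lower in 7. The test was passed by 9 events (6 higher and 3 lower), beside 46.2% of all listed events and 33.3% of all listed skipped exons. These events were better covered than most. A partly different 9 of the 15 had at least 20 reads in every library, against 124 of all 414 members. The median size of the difference was 0.137, against 0.205 over all members and 0.141 over the 124 well-covered ones.

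SBF1, a catalytically inactive phosphatase of the myotubularin family, had the largest difference among them in a well-covered exon. Its exon of 78 bases stood at 0.618, 0.571 and 0.560 in group 1 and 0.333, 0.352 and 0.308 in group 2 (difference 0.252, log2 odds ratio 1.52, SE 0.35, edgeR adjusted p 1.15e-04). SCRIB, a scaffold of epithelial polarity, followed with an exon of 63 bases at 0.615, 0.567 and 0.620 in group 1 and 0.390, 0.385 and 0.372 in group 2 (difference 0.218, edgeR adjusted p 8.54e-05). In both genes the libraries of a group lay close together and far from the other group. ASXL1, a chromatin regulator of the Polycomb deubiquitinase complex, held an exon of 153 bases that was higher in group 1 by 0.145 (edgeR adjusted p 0.0442), or by 0.0851 without the correction for length. GORASP1, a Golgi stacking protein, held an exon of 204 bases with a difference of 0.300 from as few as 6 reads a library (edgeR adjusted p 0.0504), which was 0.158 without that correction. MTA1, a subunit of the NuRD chromatin complex, held an exon of 51 bases in 2 events with differences of 0.104 and 0.170 (edgeR adjusted p 0.0407 and 0.0519). FRMD4A, a FERM-domain scaffold, held an exon of 57 bases with a difference of -0.114 (edgeR adjusted p 0.194). It ranged from -0.216 without group 1 replicate 1 to -0.0212 without group 1 replicate 3. The exon of 150 bases in BRF1, a subunit of the RNA polymerase III initiation factor, had differences of -0.177 and -0.114 in its 2 events (edgeR adjusted p 0.0691 and 0.0476). The first was -0.114 without group 1 replicate 3, and the second ranged from -0.0465 without group 1 replicate 1 to -0.171 without group 1 replicate 3. Without the correction for length they were -0.0973 and -0.0596.

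Among the same 124 well-covered members, the groups did not overlap in 96 (77.4%), beside 76.9% of all listed skipped exons of that coverage. Of the 96, 38 were higher in group 1 and 58 lower. The members named next lie at the ends of that order, and a large difference is what placed them there. GOLIM4, a membrane protein that cycles through the cis-Golgi, was included at 0.359, 0.388 and 0.33 in group 1 and 0.634, 0.627 and 0.640 in group 2. Most GOLIM4 transcripts thus lacked the exon in group 1 and held it in group 2. The event rested on at least 269 reads a library, with a difference of -0.275 (log2 odds ratio -1.63, SE 0.18, edgeR adjusted p 1.92e-18).

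MOSPD1, a membrane protein with a major sperm protein domain, held an exon of 162 bases at 0.358, 0.488 and 0.372 in group 1 and 0.773, 0.640 and 0.690 in group 2. The difference of -0.295 was the lowest of the reported well-covered members, from 20 to 27 reads a library (edgeR adjusted p 0.0148). KHK, the ketohexokinase that phosphorylates fructose, held an exon of 117 bases at 0.187, 0.264 and 0.204 in group 1 and 0.497, 0.345 and 0.563 in group 2 (difference -0.25, edgeR adjusted p 0.00257). Skipping was the major form in group 1 for both genes. LETM2, a mitochondrial membrane protein, had a difference of -0.257 in an exon of 93 bases (edgeR adjusted p 0.00971), and of -0.168 without group 2 replicate 2.

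NME7, a nucleoside diphosphate kinase family member found with the gamma-tubulin ring complex, held an exon of 111 bases at 0.883, 0.748 and 0.692 in group 1 and at 1 in every library of group 2. No skipping read was seen in group 2, which had 31, 22 and 22 inclusion reads, against 2, 4 and 6 skipping reads in group 1 (edgeR adjusted p 0.00162). Through the neighbour of this event the exon holds an in-frame stop codon from base 16, although it is coding in another annotated transcript.

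At the other end, RERE, a nuclear receptor corepressor, held an exon of 126 bases at 0.936, 0.930 and 0.868 in group 1 and 0.699, 0.670 and 0.690 in group 2 (difference 0.225, edgeR adjusted p 0.0136). TM2D3, a transmembrane protein, held the 78-base exon shown above at 0.638, 0.495 and 0.573 in group 1 and 0.394, 0.352 and 0.275 in group 2 (difference 0.229, edgeR adjusted p 0.00321). HMMR, a hyaluronan receptor that also binds the mitotic spindle, was at 0.533, 0.385 and 0.443 in group 1 and 0.241, 0.238 and 0.296 in group 2 (difference 0.195, edgeR adjusted p 0.00635). All 3 genes held more of the long form in group 1 than in group 2, at different levels. TNC, an extracellular matrix glycoprotein with alternatively spliced fibronectin type III repeats, held an exon of 273 bases at 0.744, 0.715 and 0.694 in group 1 and 0.487, 0.513 and 0.614 in group 2 (difference 0.179, edgeR adjusted p 7.80e-04). CHID1, a chitinase-like secreted protein, had the same difference, 0.179, in an exon of 93 bases (edgeR adjusted p 0.00921). SLC16A5, of the monocarboxylate transporter family, held an exon of 810 bases at 1 in all 3 libraries of group 1 and at 0.655, 0.808 and 0.758 in group 2, which rested on 4, 2 and 3 skipping reads (edgeR adjusted p 0.0367). The correction for length moved several of these differences by over 1.5 times. Without it they were 0.141 in RERE, 0.106 in TNC, 0.0473 in SLC16A5 (0.259 with it) and -0.138 in NME7 (-0.226 with it).

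**Figure D3:**
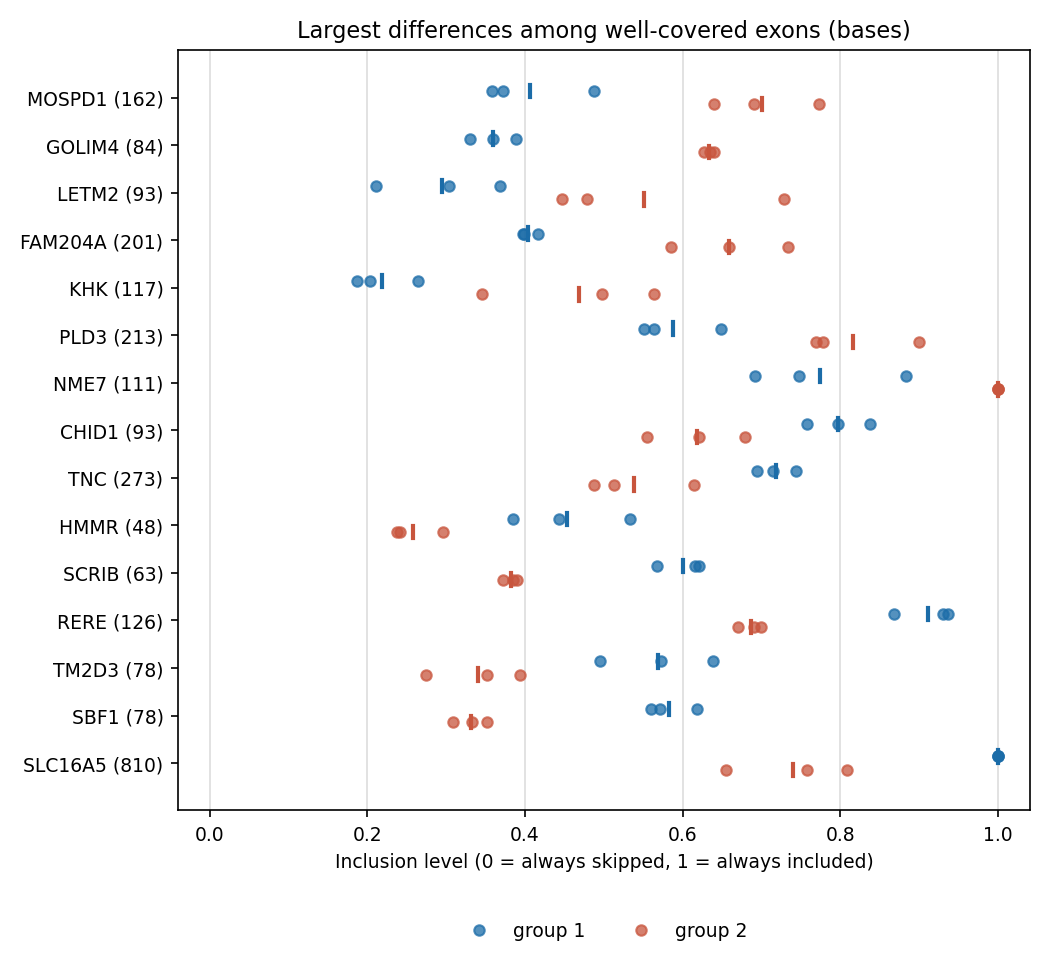
Inclusion level (x axis, 0 to 1) of the reported well-covered members with the lowest and highest differences between groups, 1 gene per line with the exon length in bases. Points are the 3 libraries of group 1 (blue) and group 2 (red), bars are the group means, and the groups do not overlap in any line.

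Of the 12 events called in all 9 fits, APP, the amyloid precursor protein, had the deepest coverage in a coding exon. Its exon of 57 bases (exon 8 of 18) stood at 0.603, 0.619 and 0.625 in group 1 and 0.765, 0.785 and 0.791 in group 2, from at least 650 reads a library (difference -0.165, edgeR adjusted p 9.62e-14). DMKN, a secreted protein of epithelia, held an exon of 42 bases at 0.398, 0.415 and 0.441 in group 1 and 0.635, 0.630 and 0.620 in group 2 (edgeR adjusted p 9.83e-06). FOXM1, a transcription factor of the cell cycle, held an exon of 45 bases at 0.722, 0.711 and 0.708 in group 1 and 0.923, 0.903 and 0.896 in group 2 (edgeR adjusted p 1.39e-04). ASL, the argininosuccinate lyase of the urea cycle, held an exon of 195 bases at 0.626, 0.843 and 0.753 in group 1 and 0.968, 0.928 and 0.959 in group 2 (edgeR adjusted p 8.19e-04), with a difference of -0.211 that was -0.106 without the correction for length. These exons were the major form in group 2 in all 4 genes, and the DMKN exon was the minor form in group 1.

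Exons of at most 27 bases made up 14 member events in 13 genes, all in coding exons. Inclusion was lower in group 1 in 9 of them and higher in 5. The test was passed by 9 events, of which 8 were lower in group 1, beside 46.2% of all listed events called, 19.9% higher and 26.3% lower. The median size of the difference was 0.153. The exon of 9 bases in MTSS1L, a protein that couples membranes to actin, was included at 0.439, 0.513 and 0.440 in group 1 and 0.600, 0.605 and 0.588 in group 2. It rested on at least 365 reads a library (difference -0.134, edgeR adjusted p 4.94e-06). The mean level of this run of 3 codons was 0.464 in group 1 and 0.598 in group 2.

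DNM1, a dynamin that pinches off endocytic vesicles, held an exon of 12 bases at 0.594, 0.647 and 0.633 in group 1 and 0.751, 0.825 and 0.751 in group 2 (edgeR adjusted p 0.00145). PICALM, a clathrin adaptor, held an exon of 24 bases at 0.283, 0.318 and 0.314 in group 1 and 0.458, 0.396 and 0.476 in group 2 (edgeR adjusted p 0.0243). ARHGAP12 held an exon of 15 bases at 0.701, 0.827 and 0.724 in group 1 and 0.884, 0.871 and 0.903 in group 2 (edgeR adjusted p 0.00133). The exon was used less often in group 1 in all 3 genes, with no overlap between groups.

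STX16, a SNARE of the trans-Golgi network, went the other way. Its exon of 12 bases stood at 0.696, 0.655 and 0.762 in group 1 and 0.507, 0.491 and 0.478 in group 2 (edgeR adjusted p 0.0282). The exon of 15 bases in FNBP1, an F-BAR protein of endocytosis, was in 2 events that share it. Its mean levels were 0.119 and 0.178 in group 1 and 0.437 and 0.425 in group 2 (edgeR adjusted p 0.00787 and 0.0214), and the 2 events are not independent. AP1G1, a subunit of the AP-1 clathrin adaptor, held an exon of 9 bases that was rare in both groups, at 0.000, 0.000 and 0.086 in group 1 and 0.072, 0.126 and 0.190 in group 2 (edgeR adjusted p 0.128). The exon of 12 bases in MYO18A, an unconventional myosin, had as few as 3 reads a library (edgeR adjusted p 0.383).

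**Figure D4:**
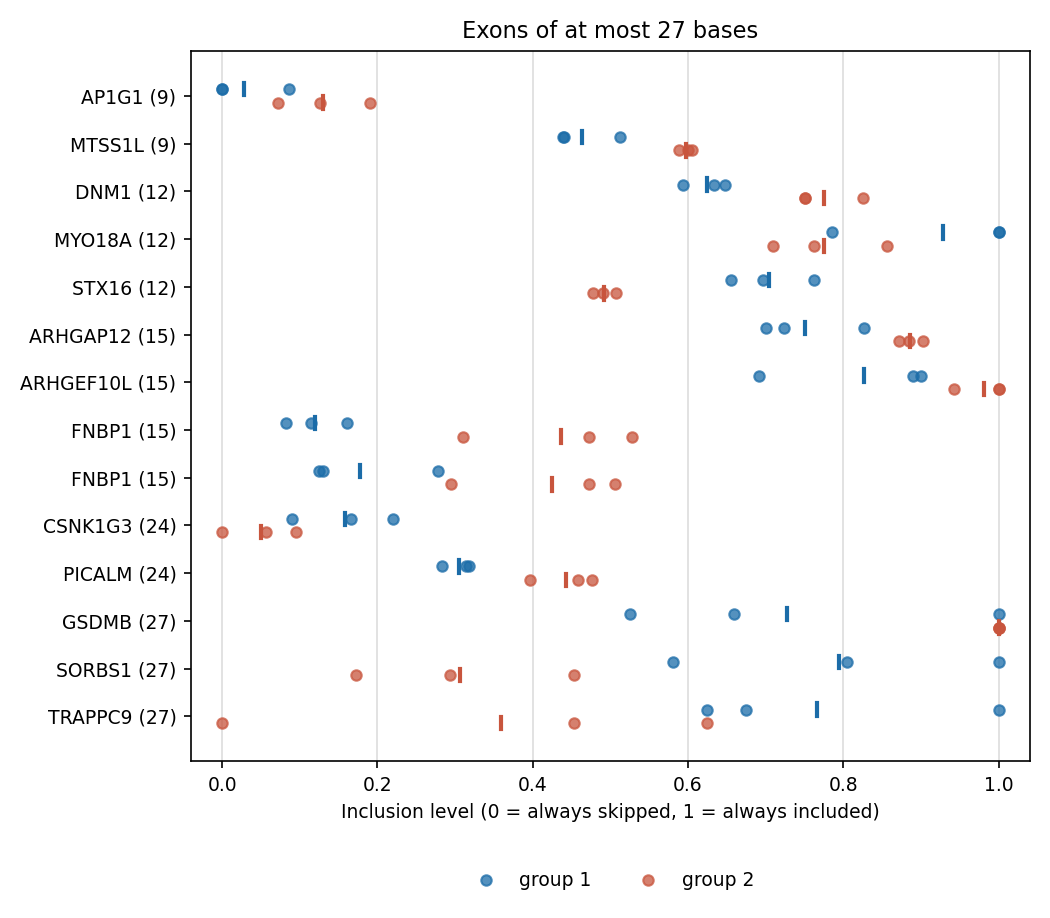
Inclusion level (x axis, 0 to 1) of the 14 member events with an exon of at most 27 bases, with the exon length in bases beside the gene. Points are the 3 libraries of group 1 (blue) and group 2 (red) and bars are group means. The points of MTSS1L, DNM1 and PICALM lie lower in group 1 and those of STX16 higher.

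At the other extreme, the exon of 3381 bases in PLEC, a cytolinker of intermediate filaments, encodes the rod domain that the rodless form lacks. It was included at 0.580, 0.626 and 0.660 in group 1 and 0.436, 0.537 and 0.531 in group 2 (difference 0.120, edgeR adjusted p 0.00212). Only 25 to 52 of the reads a library were skipping reads, while 970 to 1411 were inclusion reads, and the correction for length set the scale. Without that correction the difference was 0.0139. The same held over all long members. For the 24 members above 300 bases the median size of the difference was 0.216 with the correction and 0.0850 without it, while for the 18 members of at most 30 bases it was 0.160 and 0.15.

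KIAA1217 held an exon of 1599 bases at 0.686, 0.368 and 0.311 in group 1 and 0.612, 1 and 0.653 in group 2, with at most 4 skipping reads in any library (edgeR adjusted p 0.109). Its difference was -0.3, against -0.178 without group 2 replicate 2 and -0.0689 without the correction for length. FASTKD3, a mitochondrial RNA-binding protein, held a partly coding exon of 1551 bases from as few as 2 reads (edgeR adjusted p 0.175). The exons of 1077 bases in FAM86EP, a pseudogene, and of 1074 bases in ZBTB44, a zinc finger gene, did not pass the test either (edgeR adjusted p 0.102 and 0.427).

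The gene lists used next were matched by symbol, in part by its first letters, so their counts are those of a list and not of a function. Each leaves out members of a like function and can take in others. MAP2, JAKMIP3, HMMR and NME7 are outside the list of centrosome and microtubule genes, PALLD and TNC outside that of adhesion and actin, FNBP1 and PACSIN2 outside that of membrane traffic, and KHK outside that of kinases, which takes in the antisense gene MAP3K14-AS1. Their shares of calls stand beside 46.2% of all listed events.

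The list of centrosome and microtubule genes took in 5 members, and these 5 passed the test, 1 higher in group 1 and 4 lower. The member that was higher was that of CDK5RAP2. AKAP9, a scaffold of the centrosome and Golgi, had the largest difference of the 5, in an exon of 141 bases at 0.423, 0.490 and 0.275 in group 1 and 0.725, 0.801 and 0.701 in group 2 (difference -0.346, edgeR adjusted p 1.04e-05). CEP170, which binds the subdistal appendages of the mother centriole, held an exon of 294 bases at 0.455, 0.580 and 0.525 in group 1 and 0.610, 0.615 and 0.686 in group 2 (edgeR adjusted p 0.0330), a difference of -0.117 that was -0.0734 without the correction for length. PCNT, a scaffold of the pericentriolar material, held an exon of 141 bases at 1, 0.742 and 0.896 in group 1 and at 1 in all of group 2 (edgeR adjusted p 0.0388). That call was lost in each of the 6 fits without 1 library. Its difference of -0.121 was -0.0652 without the correction for length and ranged from -0.181 without group 1 replicate 1 to -0.052 without group 1 replicate 2.

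The list of cell junction, adhesion and actin genes took in 29 members, of which 14 passed the test, 7 in each direction. The median size of the difference was 0.167. ENAH, which promotes actin filament growth, held an exon of 63 bases at 0.218, 0.146 and 0.207 in group 1 and 0.362, 0.365 and 0.334 in group 2 (edgeR adjusted p 1.28e-06). MYOF, a ferlin of membrane repair, held an exon of 39 bases at 0.307, 0.300 and 0.240 in group 1 and 0.143, 0.155 and 0.157 in group 2 (edgeR adjusted p 4.58e-06). The 2 exons were the minor form in both groups and moved in opposite directions.

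EPB41, the membrane skeleton protein 4.1R, held 2 member exons that went opposite ways. The exon of 57 bases (chr1:29058589-29058645, plus strand) stood at 0.381, 0.402 and 0.366 in group 1 and 0.303, 0.306 and 0.232 in group 2 (edgeR adjusted p 0.00463). The exon of 63 bases (chr1:29060422-29060484, plus strand), which encodes part of the spectrin-actin binding domain, stood at 0.681, 0.525 and 0.716 in group 1 and 0.861, 0.737 and 0.765 in group 2 (edgeR adjusted p 7.79e-05). Its difference was -0.147, and -0.0892 without group 1 replicate 2. A further event of the same 63-base exon with other flanking exons also gave a lower level in group 1 (difference -0.214, edgeR adjusted p 1.90e-04). The 2 exons are shown because they lie in one gene and differ in direction, with capitals for the exon.

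EPB41 exon of 57 bases: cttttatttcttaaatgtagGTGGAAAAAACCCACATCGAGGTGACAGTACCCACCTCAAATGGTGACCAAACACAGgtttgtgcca
EPB41 exon of 63 bases: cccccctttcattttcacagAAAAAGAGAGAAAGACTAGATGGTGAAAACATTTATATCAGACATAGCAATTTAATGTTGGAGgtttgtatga

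A list of genes with cassette exons known to differ between epithelial and mesenchymal cells took in 8 member events in 6 genes, matched by gene and not by exon. The level was higher in group 1 in 4 and lower in 4, and 4 passed the test, 3 higher and 1 lower. SCRIB and ENAH were among those called. ARHGEF11 held an exon of 120 bases at 0.762, 0.753 and 0.953 in group 1 and 0.898, 0.946 and 0.931 in group 2 (edgeR adjusted p 0.116).

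The chromatin and transcription list took in 18 members, 13 higher in group 1 and 5 lower. Of these, 6 passed the test, 4 higher and 2 lower. KDM1A, the lysine demethylase LSD1, held an exon of 60 bases at 0.552, 0.558 and 0.546 in group 1 and 0.452, 0.430 and 0.474 in group 2, from at least 263 reads (edgeR adjusted p 0.00633). It was thus used about equally with its skipped form in both groups. The list of RNA-binding and splicing genes matched 1 member, RBM23, a close relative of RBM39, and left out the RNA-binding proteins PUF60, PCBP2, PUM2 and FASTKD3. RBM23 held an exon of 48 bases at 0.569, 0.526 and 0.579 in group 1 and 0.499, 0.395 and 0.473 in group 2 (edgeR adjusted p 0.00833).

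The list of kinases and phosphatases took in 9 members, of which 4 passed the test, 2 in each direction. PTPN6, a tyrosine phosphatase of signalling in blood and epithelial cells, held an exon of 123 bases at 0.788, 0.799 and 0.761 in group 1 and 0.969, 0.897 and 0.920 in group 2 (edgeR adjusted p 0.0107), a difference of -0.146 that was -0.0867 without the correction for length. PRKCZ, an atypical protein kinase C of cell polarity, held consecutive members, the exons numbered 3 and 4 of the canonical transcript. Both were at 1 in all 3 libraries of group 1, from 5 to 12 reads. They stood at 0.606, 0.719 and 0.805 and at 0.683, 0.834 and 0.932 in group 2 (edgeR adjusted p 0.0218 and 0.0407). The difference of the second was 0.184, and 0.117 without group 2 replicate 1.

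The membrane traffic list took in 17 members, 11 higher in group 1 and 6 lower, with 7 past the test (4 higher and 3 lower). VPS53, a subunit of the GARP and EARP tethering complexes, held an exon of 87 bases at 0.791, 0.923 and 0.830 in group 1 and 0.662, 0.664 and 0.706 in group 2 (edgeR adjusted p 0.0105). SEC31A, a coat protein of vesicles that leave the endoplasmic reticulum, held an exon of 39 bases at 0.957, 0.949 and 0.833 in group 1 and 0.838, 0.761 and 0.746 in group 2 (edgeR adjusted p 0.00682).

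The same exon can be counted in more than 1 event when its neighbours differ. This held for 14 exons, in 28 events. The direction differed between the events of TCF7L2 and KRIT1. In TCF7L2, a transcription factor of Wnt signalling, the exon of 51 bases (chr10:113158667-113158717, plus strand) was joined to 2 different downstream exons. With the nearer one, 1202 bases away, it stood at 0.903, 0.878 and 0.626 in group 1 and 1, 1 and 0.812 in group 2 (edgeR adjusted p 0.222). With the farther one, 1901 bases away, it stood at 0.336, 0.227 and 0.219 in group 1 and 0.193, 0.107 and 0.074 in group 2 (edgeR adjusted p 0.0422). The level of the exon was thus high beside one partner and low beside the other. The exon is shown with the bases of both introns next to it.

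TCF7L2 exon: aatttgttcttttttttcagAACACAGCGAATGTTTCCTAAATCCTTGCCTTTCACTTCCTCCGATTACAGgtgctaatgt

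The KRIT1 exon of 270 bases lies in the 5′ untranslated region, and its 2 events had at most 10 reads a library (edgeR adjusted p 0.595 and 0.388).

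Members outside the coding sequence keep no frame, and some were among the best covered. The exon of 123 bases in LRRC75A-AS1, a noncoding host transcript of small nucleolar RNAs, stood at 0.210, 0.25 and 0.204 in group 1 and 0.374, 0.433 and 0.389 in group 2, from at least 1275 reads (edgeR adjusted p 2.69e-29). FAM204A held an exon of 201 bases in the 5′ untranslated region at 0.397, 0.399 and 0.417 in group 1 and 0.585, 0.734 and 0.658 in group 2 (edgeR adjusted p 2.73e-10). PLD3, a lysosomal exonuclease, held one of 213 bases at 0.551, 0.564 and 0.649 in group 1 and 0.900, 0.778 and 0.769 in group 2 (edgeR adjusted p 1.51e-05), a difference of -0.228 that was -0.131 without the correction for length. This event was not called by limma (adjusted p 0.0597). A further PLD3 event of 213 bases was the one called in all 9 fits (difference -0.208, edgeR adjusted p 1.15e-04). ANXA2, a calcium-dependent membrane-binding protein, held one of 81 bases at 0.194, 0.166 and 0.194 in group 1 and 0.298, 0.310 and 0.296 in group 2 (edgeR adjusted p 1.70e-04). All 4 were used less in group 1. Of the 24 members in the 5′ untranslated region, 11 were higher in group 1 and 8 passed the test. Of the 43 in noncoding transcripts, 4 passed it. The test was passed by 46.2% of all listed events and 33.3% of all listed skipped exons.

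The level of the host genes is a measure that the exon length did not use, and its groups are labelled. All 374 host genes were tested. Between shMORC2 and shCtrl, 183 of them (48.9%) had an edgeR adjusted p under 0.05, with 66 higher and 117 lower in shMORC2. Of the 21005 genes tested, 39.5% were called, 19.9% higher and 19.6% lower. Host genes were more abundant than the genes at large, with a median of the mean count of 1013 against 362. Among genes whose counts averaged 1000 or more, 51.9% of 189 host genes were called, with 37 higher (19.6%) and 61 lower (32.3%), beside 24.4% higher and 26.7% lower among 6523 genes of that level. The share of called host genes was thus near that of abundant genes, and the split between directions was more uneven. Host genes of the other skipped exons were called in 161 of 396, with 65 higher and 96 lower, and 34 genes held both kinds of exon. Antisense and overlapping host genes, such as LRRC75A-AS1, may share reads with their partners, since the strand setting of the counting is not given in the sources used here.

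Most of the changes were small. The median size of the log2 fold change among called host genes was 0.46, and 20 of them changed by at least 1 on the log2 scale. COL2A1, the type II collagen chain, had the highest log2 fold change of called host genes whose counts averaged 100 or more. It rose from 3.97, 3.10 and 3.5 CPM in shCtrl to 36.5, 36.2 and 37.7 CPM in shMORC2 (log2 fold change 3.38, SE 0.11, edgeR adjusted p 2.97e-10). Its member is exon 2, of 207 bases, known as the exon that separates the IIA from the IIB form of the chain, and it stood at 0.839, 0.880 and 0.923 in group 1 and at 1 in all of group 2, from as few as 5 reads (edgeR adjusted p 0.251).

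PRR26 rose to a log2 fold change of 1.65 (edgeR adjusted p 3.48e-06) and JAKMIP3, a microtubule-binding coiled-coil protein, to 1.43 (edgeR adjusted p 3.35e-07). PALLD, an actin-bundling protein, rose from 21.4 ± 2.35 to 49.8 ± 5.36 CPM (SD, n = 3 each, log2 fold change 1.22, edgeR adjusted p 2.21e-06). MAP2, a microtubule-associated protein of dendrites, rose from 5.54 ± 0.574 to 12.3 ± 0.853 CPM (SD, n = 3 each, log2 fold change 1.15, edgeR adjusted p 9.78e-06). The member events of these 4 genes did not pass the test of inclusion.

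VEGFA, the vascular endothelial growth factor, had the lowest log2 fold change by the same rule. It fell from 129, 183 and 144 CPM in shCtrl to 61.1, 63.7 and 63.9 CPM in shMORC2 (log2 fold change -1.27, SE 0.11, edgeR adjusted p 2.49e-06). Its member is exon 7, of 132 bases, which carries heparin-binding residues of the longer forms. The exon stood at 0.246, 0.222 and 0.247 in group 1 and 0.310, 0.378 and 0.335 in group 2, from at least 181 reads (edgeR adjusted p 8.90e-04). GOLGA4, a golgin of the trans-Golgi network, fell from 156 ± 14.4 to 70.3 ± 9.60 CPM (SD, n = 3 each, log2 fold change -1.15, edgeR adjusted p 3.22e-06). LDLRAD1, a membrane protein with low-density lipoprotein receptor repeats, fell by 1.09 on the log2 scale, SCEL, a precursor of the cornified envelope, by 1.07 and RP11-551L14.4 by 1.03 (edgeR adjusted p 7.95e-05, 5.34e-05 and 5.36e-04). Of these 5 genes only VEGFA had a member event past the test of inclusion.

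The level was also compared for the 4 genes followed by PCR that held members. OBSL1 rose from 65.5 ± 2.72 to 120 ± 5.02 CPM (SD, n = 3 each, log2 fold change 0.88, edgeR adjusted p 2.22e-06) and FRMD8 from 21.6 ± 2.60 to 26.3 ± 1.01 CPM (log2 fold change 0.28, edgeR adjusted p 0.0347). CDK5RAP2 stood at 237, 234 and 231 CPM in shCtrl and 222, 213 and 211 CPM in shMORC2 (log2 fold change -0.12, edgeR adjusted p 0.184). MARK2 stood at 67.8, 72.5 and 71.1 CPM in shCtrl and 65.6, 72.9 and 75.2 CPM in shMORC2 (log2 fold change 0.02, edgeR adjusted p 0.894). The total level of CDK5RAP2 and MARK2 thus did not pass the test, while that of OBSL1 and FRMD8 did.

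**Figure D5:**
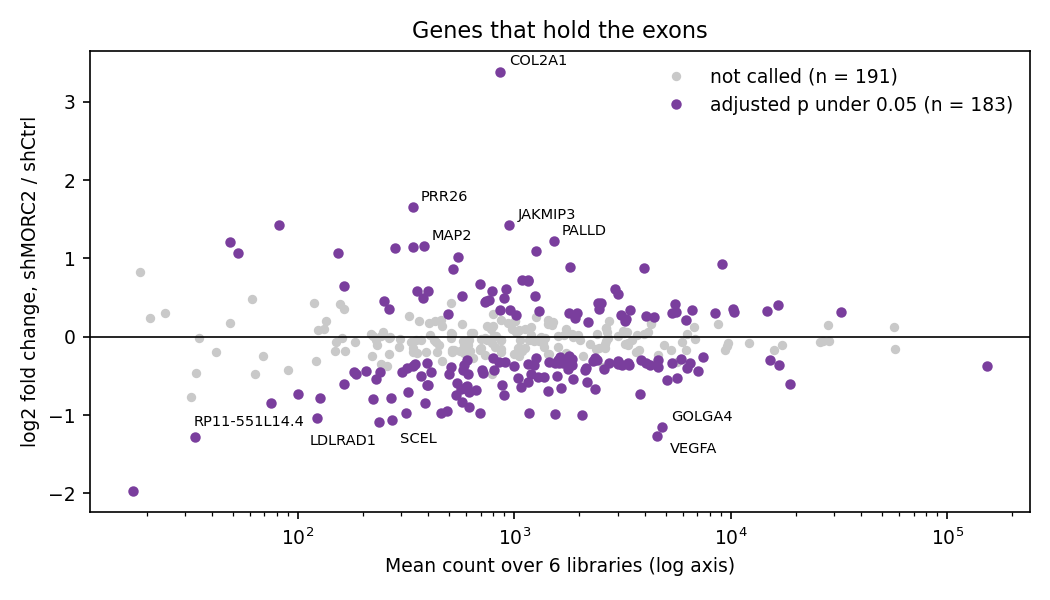
log2 fold change of shMORC2 over shCtrl (y axis) against the mean count over 6 libraries (x axis, log scale) for the 374 genes that hold members. Purple points are the 183 genes with an adjusted p under 0.05, and the named genes are the 5 highest and 5 lowest among called genes whose counts averaged 100 or more.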

How the data were processed

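RNA from SW480 cells with shCtrl or shMORC2 was sequenced from stranded mRNA libraries, 3 per group. Per the labels, the submitters' processing notes name Trimmomatic 0.36, STAR 2.5.3a, featureCounts, Subread 1.5.1, edgeR 3.12.1 and GRCh38, and the study's methods name rMATS for splicing. The authors deposited raw counts for each gene and a table of splicing events with the inclusion reads, the skipping reads and the levels of 3 libraries in each of 2 unnamed groups. The authors' own p-value, adjusted p and difference columns of that table were not used, and the RPKM table was not used. The listed events had a p under 0.05 and a difference of at least 0.1 after rounding. No column belonged to a sample of another series (0 columns).

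Inclusion levels were recomputed from the reads and the lengths of both forms, and they differed from the deposited levels by at most 5.00e-04. Exon length was the end minus the start of the exon. The members, the gene lists and the naming rule were chosen with earlier results of these data known. The rule named members in the genes followed by PCR and on the exon list of the study, the 8 highest and 8 lowest differences among members with at least 20 reads in every library and no overlap, the 5 shortest and 5 longest exons, exons with events of opposite direction, and the 5 highest and 5 lowest called host genes whose counts averaged 100 or more. From the gene lists and the exons with a stop codon or outside the coding sequence it took up to 4 of the best covered. Some items that the rule named are not reported here. Further events named in the text were chosen after their values were seen.

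Event reads were tested in R 4.3.3 with edgeR 4.0.16, by a quasi-likelihood fit of 12 values per event with terms for the library, the form and the form by group, with Benjamini-Hochberg adjustment over 1449 events. Gene counts were tested by edgeR with filterByExpr, TMM scaling and group as the only term over 21005 genes. An adjusted p under 0.05 was called. The SE was the estimate over the root of its F value. Alternatives used DESeq2 1.42.0, limma 3.58.1, other filters on reads, a replicate block and leaving out each library. Libraries held 42092664 to 43434425 gene counts. Same-numbered libraries deviated together from their group means, with correlations of 0.386, 0.193 and 0.181. No label says what a number stands for, and correlations between differently numbered libraries were not computed. Pairing was therefore not tested. The main gene test had no term for it. With the replicate block, 49.0% of all genes tested were called, against 39.5% in the main test. The libraries of the splicing table carry no labelled number. Both tests were tested on simulated data. The simulated splicing changes were all larger than any log2 odds ratio given above, with a common spread for all events. Most simulated events were unchanged, whereas the listed events had been selected on this contrast. The splicing test recovered 51.0% of 200 changed events, and 86.3% of the 102 of them with at least 20 reads, with 1 false call among 103. The gene test recovered 80.4% of 194 changed genes, with 22 false calls among 178, a share above the threshold of 0.05. The simulated gene changes were larger than the median change of called host genes, 0.46. These rates therefore do not carry over to the calls above.

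Exon classes came from GENCODE release 44 and sequences from the GRCh38 genome. Event reads were used as deposited, and intervals for counting error are not given.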

Additional observations from a re-analysis of the deposited data

How the results depend on the processing

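Among members called between the groups, DESeq2 gave 35, limma on the logit of the level 54, and leaving out 1 library 58 to 110, against 154. The counts were 58 and 69 without group 1 replicate 1 and 3, and 89 and 94 without group 2 replicate 2 and 3. The cause was not tested. Filters of 10 and 20 reads in every library left 139 of 193 and 110 of 124 members called, of which 121 and 94 were among the 154. The shares over all listed events under these filters are not given here, so these counts do not set the members apart. Members without overlap numbered 222 with or without the correction for length, which cannot change the order of the libraries within an event. They numbered 133 (68.9%) and 96 (77.4%) under these filters, which leave fewer members. The shares of all listed skipped exons were 68.3% and 76.9%. A difference of at least 0.2 left 210 of 414 members, and 400 were distinct exons. Called host genes numbered 178 with DESeq2, 180 without TMM, 173 with a filter of 10 counts in total and 146 to 194 without 1 library, against 183. With the replicate number as a block they numbered 225, and the block moved no count of calls by over 1.5 times. Among host genes whose counts averaged 1000 or more, a limit chosen after seeing the data, 98 were called. Called host genes were more often lower than higher in shMORC2 under all 10 other settings run over all host genes. None of the 280 alternative values of the 40 named events changed direction. In events whose groups do not overlap, no such value could have done so. Without the correction for length, 12 moved by more than the spread between libraries. Leaving out 1 of 3 libraries cannot move a difference that far, so those settings could add none to the 12. The FRMD8 difference, at -0.136, was -0.0345 without group 1 replicate 1. All 100 alternative values of the 10 named host genes kept their direction and their call. Coverage limits the splicing values, since 221 of 414 members had fewer than 10 reads in at least 1 library.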
